A study of Rattus norvegicus with 24 samples.

Results

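The 8 genes described here encode enzymes of triglyceride synthesis in the liver: Gpd1, Gpam, Agpat2, Agpat3, Lpin1, Lpin2, Dgat1 and Dgat2. They were taken by name, as the probe sets of the rat gene array whose platform annotation gives 1 of these symbols and no other. Each gene was represented by 1 probe set, so the 8 members were 8 of the 20917 probe sets on the array and 8 of the 16856 genes with a probe set of their own.

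Hepatocytes build triglyceride by adding fatty acids one after another to glycerol 3-phosphate, removing the phosphate before the last addition. Gpd1, a cytosolic dehydrogenase, makes glycerol 3-phosphate from a glycolytic intermediate. Gpam, a mitochondrial acyltransferase, adds the first fatty acid, Agpat2 and Agpat3 are lysophosphatidic acid acyltransferases of the second step, the lipins Lpin1 and Lpin2 remove the phosphate to give diacylglycerol, and Dgat1 and Dgat2 add the last fatty acid. Diacylglycerol is also the substrate from which phosphatidylcholine and phosphatidylethanolamine are made, and in the liver the product is stored in droplets or exported in lipoproteins.

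RNA came from the livers of 24 adult F2 female Sprague-Dawley rats whose F0 founders, the grandfathers in the group labels, ate chow or a high-fat diet (HFD). Descent from chow-fed or HFD-fed grandfathers is written as chow line or HFD line. The females of both lines themselves ate chow or the HFD (42/45% of energy from fat) for 12 weeks. In the chow line, 7 females on chow (GpatCD-CD) and 6 on the HFD (GpatCD-HF) were measured, and in the HFD line 6 on chow (GpatHF-CD) and 5 on the HFD (GpatHF-HF). The labels tie no animal to a litter or parent, so the p-values measure the spread between these animals, some of which may be related.

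Each value is a log2 signal, log2(intensity + 16), on 1 array from 1 rat, and the number of arrays limits the precision. The text on animal care names gonadal white adipose tissue, whereas every sample label says liver. Hepatocyte Alb lay at 13.26 to 13.68 on the 24 arrays and the adipocyte genes Adipoq, Lep and Plin1 lay at 5.72 to 6.62, 5.50 to 6.13 and 6.03 to 6.88, near the level of 5.72 below which probe sets were left out as dim. Other genes of the adipocyte list were brighter, with Cidec at 9.95 to 10.82, Pnpla2 at 9.64 to 10.77, Lipe at 7.33 to 8.17 in its brighter probe set and Cfd at 6.64 to 7.46. Correlations between arrays ran from 0.974 to 0.993. Arrays 21 and 25 of GpatCD-CD, 22 of GpatCD-HF and 24 of GpatHF-HF stood apart on the second principal component (22.1 to 25.1, against -13.7 to 5.85 for the other 20), which held 13.8% of the variance. The median log2 signal of an array over all 20917 probe sets averaged 6.94 ± 0.05 (SD, n = 5) in GpatHF-HF and 7.04 ± 0.12 (n = 7), 7.03 ± 0.10 (n = 6) and 7.00 ± 0.05 (n = 6) in GpatCD-CD, GpatCD-HF and GpatHF-CD. Differences within the HFD line and among HFD-fed females are therefore also given with each array centred on this median and after quantile normalization. In whole liver, fewer cells of a type and less RNA per cell cannot be told apart.

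Promoters of 5 of the 8 members were matched by symbol in the RefSeq table (build GRCr8, 250 bases before to 50 after the start): Gpam, Agpat2, Agpat3, Lpin1 and Lpin2. Lpin1 and Agpat2 are shown because they had the largest negative differences between own diets averaged over both lines, and because their windows differ in composition. The Lpin1 window is chr6:45108893-45109192 and the Agpat2 window chr3:29826108-29826407, both on the minus strand and written 5′ to 3′. Capitals mark, in Lpin1, the letters TGANGTCA (a cAMP element with N for any base) and CCAAT, and in Agpat2 the GC box GGGCGG on either strand.
Lpin1: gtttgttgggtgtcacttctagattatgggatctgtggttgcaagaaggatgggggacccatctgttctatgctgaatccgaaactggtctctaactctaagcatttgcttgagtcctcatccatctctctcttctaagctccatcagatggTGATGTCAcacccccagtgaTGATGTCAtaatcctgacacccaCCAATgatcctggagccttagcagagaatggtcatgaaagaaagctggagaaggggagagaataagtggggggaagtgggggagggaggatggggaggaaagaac
Agpat2: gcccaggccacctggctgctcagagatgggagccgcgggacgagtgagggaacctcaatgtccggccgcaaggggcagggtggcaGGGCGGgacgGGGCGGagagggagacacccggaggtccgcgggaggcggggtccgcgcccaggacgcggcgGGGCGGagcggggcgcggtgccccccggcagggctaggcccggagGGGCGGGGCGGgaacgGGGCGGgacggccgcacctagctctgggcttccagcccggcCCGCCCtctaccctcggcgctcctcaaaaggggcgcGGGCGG
The Lpin1 window held TGATGTCA 2 times, starting at -98 and -78 from the start, and CCAAT at -55. Of all 33469 windows in the table, searched on both strands, 10.2% held TGANGTCA and 37.5% held CCAAT, and the first of these motifs was searched after the Lpin1 sequence had been seen. The Agpat2 window held 8 GC boxes, with some overlapping each other, and was 78.3% G and C, whereas the median window was 51.7% G and C and 33.1% of windows held a GC box. Gpam had 1 CCAAT box, read on the minus strand at -174, and Agpat3 and Lpin2 held none of the 7 motifs searched. The other motifs were TCACNCCAC (SREBP sterol element, 1.12% of windows), CACGTG (palindromic E-box, 6.42%), TGACG (cAMP element core, 21.2%) and the DR1 element (AGGTCA repeated after 1 base, 0.0538%), none of them found in the 5 windows. These matches are letters in a window and were not tested for binding.

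The mean log2 signal of each member ranked between the 58.3rd percentile (Lpin2) and the 98.9th percentile (Dgat2) of the tested probe sets, a ranking that depends on the probes as well as on the RNA. The members differed in how much animals of the same group varied. The standard deviation within groups was 0.14 for Dgat2, at the 12.5th percentile of all tested probe sets, and 0.17, 0.18 and 0.19 for Dgat1, Agpat2 and Gpd1. It was 0.29 for Gpam, 0.33 for Lpin1 and for Agpat3, and 0.34 for Lpin2, at the 87.2nd to 92.7th percentiles, against a median of 0.19 over all tested probe sets. A change of a given size was thus harder to detect in the lipins and Agpat3 than in the last acyltransferases.

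**Figure D1:**
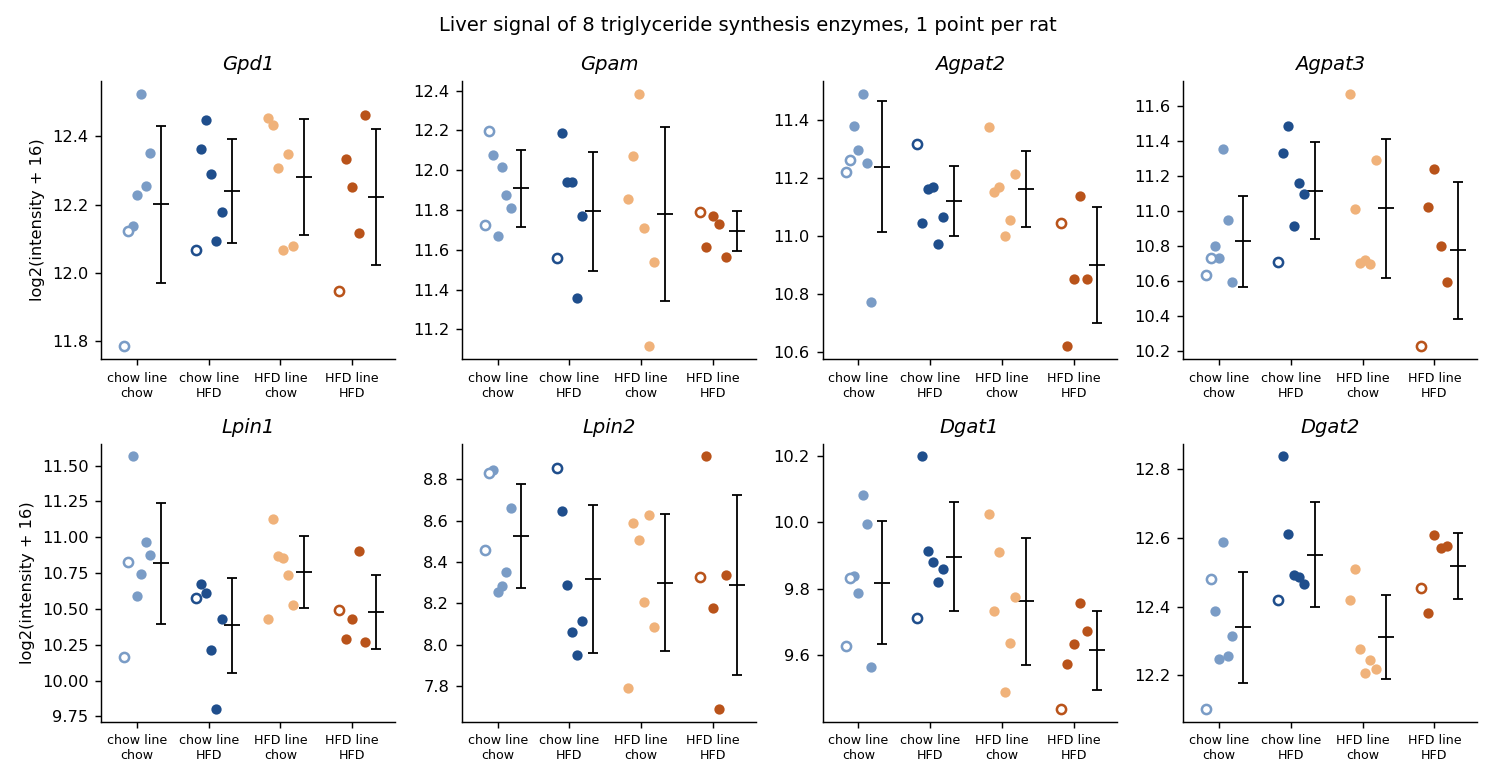
Log2(intensity + 16) of the 8 members in the 4 groups, 1 point per rat, with open points for arrays 21, 22, 24 and 25 and bars for the mean ± SD. The Dgat2 points of both HFD-fed groups sit at 12.38 or above, and the Lpin2 points of GpatHF-HF run from 7.69 to 8.91, the whole range of that gene.

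The first question was what the females' own diet did to these enzymes. No member passed the test in either line or on average: 0 of 8 had an adjusted p under 0.05 by limma with Benjamini-Hochberg adjustment over 15687 probe sets. The share of all tested probe sets that passed was 0.319% in the chow line, 0.752% in the HFD line and 1.99% on average over both lines. At an unadjusted p under 0.05, 2 members were found in the chow line (Lpin1 and Dgat2), 2 in the HFD line (Agpat2 and Dgat2) and 3 on average (Agpat2, Lpin1 and Dgat2), beside 8.80%, 15.8% and 13.3% of all probe sets. The median member difference, HFD minus chow, was -0.04 in the chow line and -0.12 in the HFD line, beside 0.01 and -0.09 for all probe sets. Negative differences numbered 4 of 8 in the chow line and 7 of 8 in the HFD line, and the second count was 5 with arrays centred and 4 with quantile normalization.

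Gpd1, at the entry of the pathway, had a log2 signal of 11.79 at the lowest, 12.23 at the median and 12.53 at the highest in GpatCD-CD, and of 12.07, 12.23 and 12.45 in GpatCD-HF. In the HFD line the same values were 12.07, 12.33 and 12.45 on chow, and the 5 rats on the HFD gave 11.95, 12.33, 12.25, 12.12 and 12.46. All 4 groups overlapped. The own-diet difference averaged over lines was -0.01 ± 0.07 (SE), with a 95% confidence interval from -0.16 to 0.14. The lowest Gpd1 signal of GpatCD-CD, GpatCD-HF and GpatHF-HF came from arrays 21, 22 and 24, and after centring the 4 arrays that stood apart deviated from their group means by -0.30 to -0.18.

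Gpam, the mitochondrial enzyme of the first acylation, ran from 11.67 through 11.88 to 12.20 (lowest, median, highest) in GpatCD-CD and from 11.36 through 11.85 to 12.19 in GpatCD-HF. In GpatHF-CD it ran from 11.12 through 11.78 to 12.38, the widest spread of the 4 groups, and the 5 GpatHF-HF rats gave 11.79, 11.62, 11.77, 11.73 and 11.56. Here again the groups overlapped. The average own-diet difference was -0.10 ± 0.11, with an interval from -0.32 to 0.12 (adjusted p = 0.751 by limma).

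Agpat2, the acyltransferase whose loss causes lipodystrophy in people, was lower on the HFD in both lines without passing the test. Its lowest, median and highest signals were 10.77, 11.26 and 11.49 in GpatCD-CD and 10.97, 11.11 and 11.32 in GpatCD-HF. They were 11.00, 11.16 and 11.38 in GpatHF-CD, and the GpatHF-HF rats gave 11.04, 10.62, 10.85, 11.14 and 10.85. In the HFD line 3 of 5 HFD-fed rats lay below all 6 on chow, whereas in the chow line array 30, a chow-fed rat, was the lowest of both groups. The difference was -0.12 ± 0.10 in the chow line, -0.26 ± 0.11 in the HFD line (adjusted p = 0.241) and -0.19 ± 0.07 on average (adjusted p = 0.217 by limma). Quantile normalization brought the value of the HFD line to -0.11. Without array 30 the average became -0.23 with an adjusted p of 0.0428 by limma, the only 1 of 37 alternatives in which it passed.

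Agpat3, an acyltransferase that also remodels phospholipids, differed in opposite directions in the lines. Its lowest, median and highest signals were 10.59, 10.73 and 11.35 in GpatCD-CD and 10.71, 11.13 and 11.49 in GpatCD-HF. They were 10.70, 10.86 and 11.67 in GpatHF-CD, and the GpatHF-HF rats gave 10.23, 11.02, 11.24, 10.80 and 10.59. HFD-fed and chow-fed rats overlapped in both lines. The difference was 0.29 ± 0.17 in the chow line and -0.24 ± 0.18 in the HFD line, and the test of the difference between them gave -0.53 ± 0.25 (unadjusted p = 0.0428, adjusted p = 0.498 by limma). Quantile normalization brought the HFD line value to -0.12. Without arrays 21, 22, 24 and 25 it became -0.10 and the difference between lines -0.42.

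Lpin1, a phosphatidate phosphatase that also acts with nuclear receptors on fatty acid oxidation genes, showed the largest own-diet difference among the 8 in the values as deposited. Its lowest, median and highest signals were 10.16, 10.83 and 11.56 in GpatCD-CD and 9.80, 10.50 and 10.68 in GpatCD-HF. In GpatHF-CD they were 10.43, 10.80 and 11.13, and the GpatHF-HF rats gave 10.49, 10.29, 10.43, 10.91 and 10.27. The HFD-fed rats lay mostly in the lower part of the chow-fed range, with 1 of 6 below all chow-fed rats in the chow line and 2 of 5 in the HFD line. The difference was -0.43 ± 0.17 in the chow line (unadjusted p = 0.0159, adjusted p = 0.427), a 1.35-fold lower signal, and -0.28 ± 0.18 in the HFD line (adjusted p = 0.452 by limma), where quantile normalization brought it to -0.13. On average it was -0.36 ± 0.12, with an interval from -0.61 to -0.10 and an adjusted p of 0.158, which became 0.0491 without array 21, the lowest chow-fed rat.

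Lpin2, the other lipin among the members, ran from 8.26 through 8.46 to 8.85 in GpatCD-CD, from 7.95 through 8.20 to 8.86 in GpatCD-HF and from 7.79 through 8.36 to 8.63 in GpatHF-CD. The GpatHF-HF rats gave 8.33, 8.91, 8.18, 7.69 and 8.34, so that 1 group spanned the whole range seen. The average own-diet difference was -0.11 ± 0.13, with an interval from -0.38 to 0.16 (adjusted p = 0.782 by limma).

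Dgat1, the endoplasmic reticulum enzyme that esterifies mainly fatty acids from outside the cell, had lowest, median and highest signals of 9.56, 9.83 and 10.08 in GpatCD-CD and of 9.71, 9.87 and 10.20 in GpatCD-HF. They were 9.49, 9.75 and 10.03 in GpatHF-CD, and the GpatHF-HF rats gave 9.44, 9.57, 9.63, 9.76 and 9.67. The own-diet difference was 0.08 ± 0.10 in the chow line, -0.15 ± 0.11 in the HFD line and -0.03 ± 0.07 on average, and each interval included 0. The HFD line value became -0.08 with arrays centred and -0.0032 after quantile normalization.

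Dgat2, the enzyme tied to newly made fatty acids and to droplet growth, came closest to passing. Its lowest, median and highest signals were 12.10, 12.32 and 12.59 in GpatCD-CD and 12.42, 12.49 and 12.84 in GpatCD-HF. In GpatHF-CD they were 12.21, 12.26 and 12.51, and the GpatHF-HF rats gave 12.45, 12.38, 12.61, 12.57 and 12.58. In the chow line 2 of 6 HFD-fed rats lay above all 7 on chow, and in the HFD line 3 of 5 lay above all 6. The difference, HFD minus chow, was 0.21 ± 0.08 in the chow line (adjusted p = 0.404) and 0.21 ± 0.08 in the HFD line (adjusted p = 0.244). Averaged over lines it was 0.21 ± 0.06, or 1.16-fold with an interval from 1.06 to 1.25, at an unadjusted p of 0.00122 and an adjusted p of 0.0570 by limma, above the threshold of 0.05. The difference between the lines was -0.01 ± 0.12, and 0.16 after quantile normalization (adjusted p = 0.717 by limma). After quantile normalization the own-diet difference was 0.28 in the HFD line and 0.12 in the chow line, the lowest chow line value among the alternatives. The adjusted p of the average was 0.00292 after quantile normalization and 0.00775 with arrays centred, and it lay between 0.00292 and 0.110 over 37 alternatives, of which 10 passed. It was 0.0493, 0.0486, 0.0271 and 0.0365 without array 22, 25, 28 or 38.

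In the HFD line the member differences moved with the scaling of the arrays. Centring took Lpin1 from -0.28 to -0.22, Agpat2 from -0.26 to -0.20, Agpat3 from -0.24 to -0.18 and Gpam from -0.09 to -0.02, and Dgat2 from 0.21 to 0.27. Lpin2 went from -0.01 to 0.05 and Gpd1 from -0.06 to 0.0042. After quantile normalization Gpam, Lpin2 and Gpd1 were at 0.05, 0.12 and 0.05. Thus Agpat2, Agpat3, Lpin1, Dgat1 and Dgat2 kept their sign under both scalings, and Gpam, Lpin2 and Gpd1 did not.

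**Figure D2:**
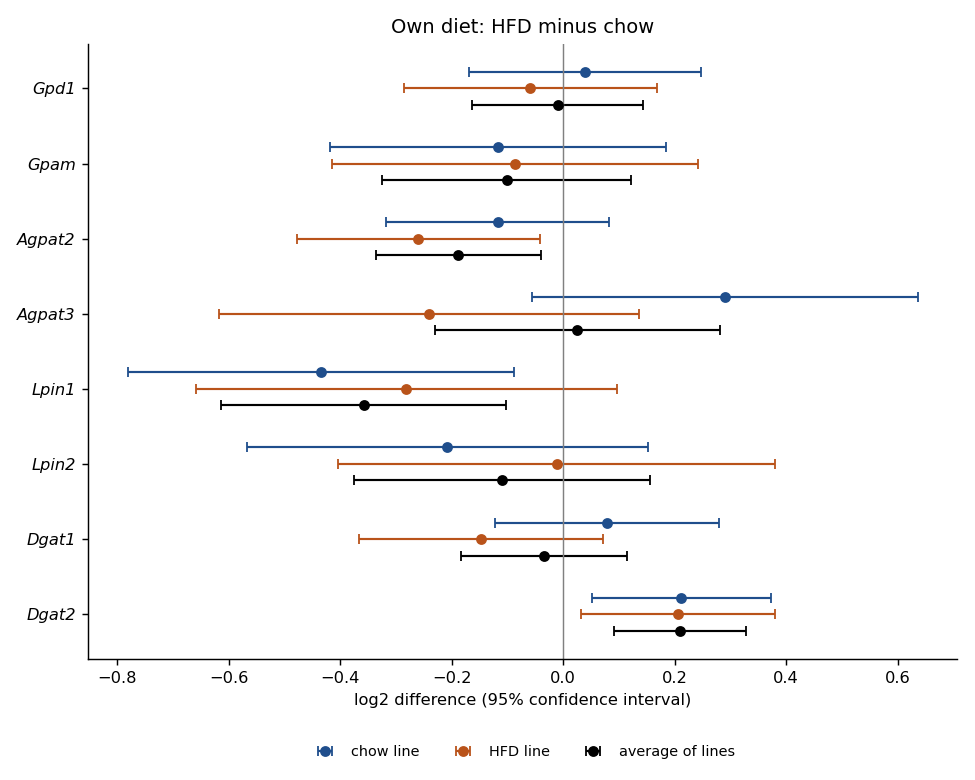
Log2 difference between HFD-fed and chow-fed females for each member in the chow line, the HFD line and their average, with 95% confidence intervals from the limma fit over 24 arrays. Dgat2 lies near 0.21 in all 3 rows, the average Lpin1 and Agpat2 intervals lie below 0, and no member had an adjusted p under 0.05.

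Some markers of other liver cells moved with the own diet too. In both lines, each of the 10 genes fixed as marking Kupffer cells and macrophages had a lower signal in HFD-fed rats (8 of 10 in the HFD line after quantile normalization), with Marco, Cd5l and Vsig4 passing the test on average (-1.16, -0.70 and -0.55). The summed intensity of that list ran from 5601 to 9235 in GpatCD-CD, 3251 to 5884 in GpatCD-HF, 4484 to 7999 in GpatHF-CD and 3996 to 6718 in GpatHF-HF. The 6 hepatocyte markers measured were all higher on the HFD in the chow line (median 0.17) and all lower in the HFD line (median -0.06), where centring left 1 and quantile normalization 4 lower, while in the chow line quantile normalization left 3 higher. None of the 6 passed. The adipocyte gene Fabp4, which macrophages also express, rose by 0.62 on average. Its means on chow were 5.65 (GpatCD-CD) and 5.75 (GpatHF-CD), near the level of 5.72 set as dim. Of the 9 adipocyte genes, 5 were higher and 4 lower on average, with Pnpla2 at -0.37 and Lipe at -0.31 (adjusted p = 0.0551 and 0.0821 by limma). The summed intensity of these 9 genes ran from 2642 to 3907, 2786 to 3984, 2935 to 3993 and 2532 to 3289 in the order GpatCD-CD, GpatCD-HF, GpatHF-CD and GpatHF-HF. The pancreatic gene Cpa1 and the bile duct gene Epcam fell by 1.43 and 0.55 on average. The other tested genes of these lists did not follow them. Ctrb1, Cpb1 and Cela1 of the pancreatic list differed by 0.08, 0.11 and -0.03. Sox9, Krt19 and Krt7 of the bile duct list differed by -0.02, 0.03 and 0.07. The part of these marker genes in the Dgat2, Lpin1 and Agpat2 values was not tested.

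The second question was whether the grandfather's diet marked these enzymes in the granddaughters. Again 0 of 8 members passed, in females on chow, in females on the HFD, on average, or in the interaction of both diets, and so did 0% of all probe sets in each of these 4 comparisons. At an unadjusted p under 0.05 there were 0, 2, 2 and 1 members, beside 9.15%, 11.0%, 11.0% and 9.71% of all probe sets in the same order. These comparisons use the same arrays as those of own diet, so their values are not independent of them.

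Among females on chow, every member interval included 0, with differences from -0.23 ± 0.18 (Lpin2) to 0.19 ± 0.17 (Agpat3), HFD line minus chow line. In females on the HFD, Dgat1 differed most clearly, by -0.28 ± 0.11 (unadjusted p = 0.0139, adjusted p = 0.434 by limma), and 4 of the 5 GpatHF-HF rats lay below all 6 GpatCD-HF rats. Agpat2 differed there by -0.22 ± 0.11 (unadjusted p = 0.0483, adjusted p = 0.450). With arrays centred, the Dgat1 and Agpat2 values were -0.20 and -0.14, and after quantile normalization -0.14 and -0.07, while the median over all tested probe sets moved from -0.10 to -0.02 with centring. Agpat3 differed by -0.34 (-0.26 centred, -0.21 after quantile normalization) and Lpin1 by 0.09 (0.18 and 0.23). Dgat2 differed by -0.03 ± 0.08 between the lines on the HFD, a value that became 0.05 with arrays centred and 0.08 after quantile normalization. Gpam, Lpin2 and Gpd1 differed by -0.10, -0.03 and -0.02, and these values became -0.01, 0.05 and 0.07 with arrays centred. On average over own diets, Dgat1 differed by -0.17 ± 0.07 (adjusted p = 0.402) and Agpat2 by -0.15 ± 0.07 (adjusted p = 0.453), and Gpd1, Gpam, Agpat3, Lpin1, Lpin2 and Dgat2 lay between -0.13 and 0.03.

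**Figure D3:**
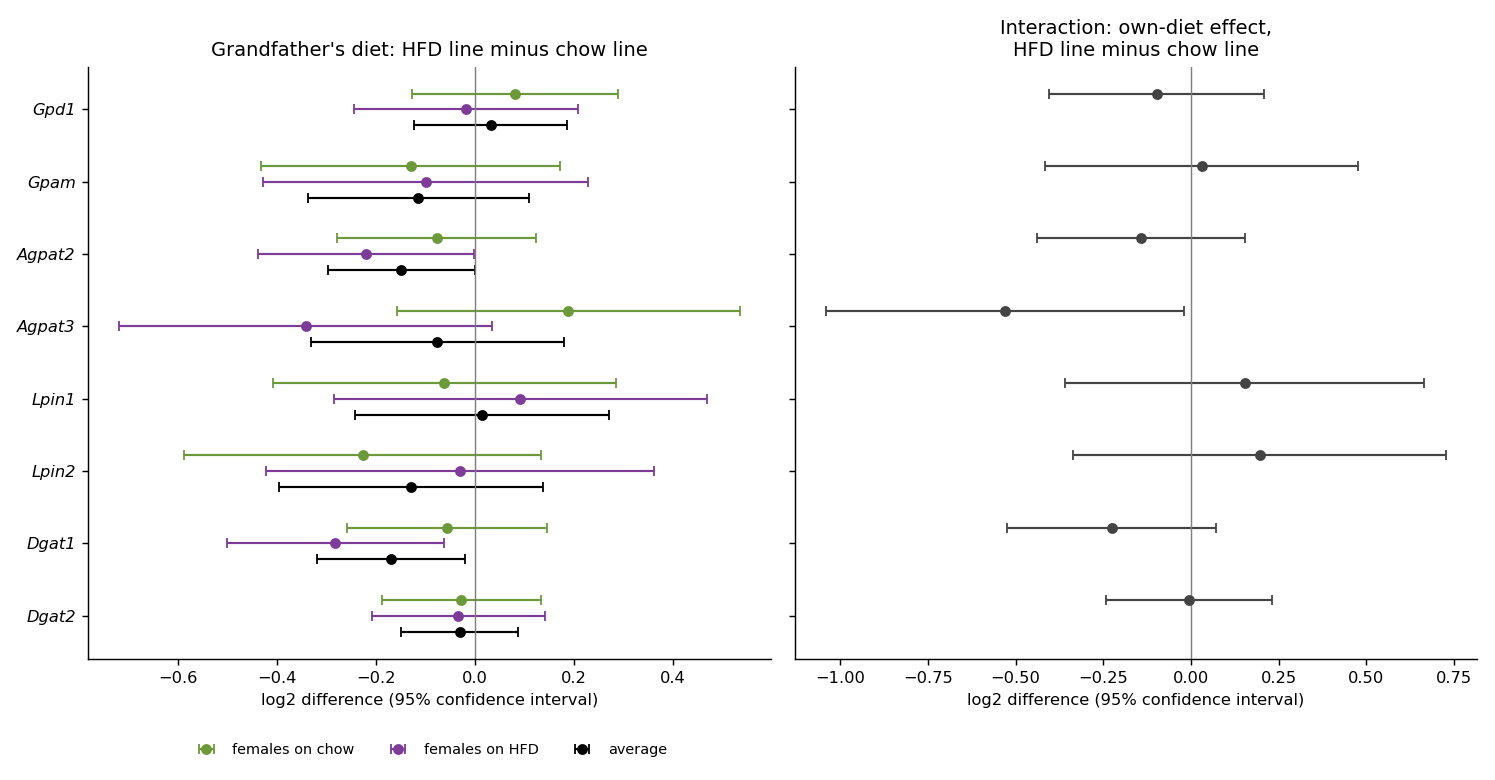
Left, log2 difference between the HFD line and the chow line for each member in females on chow, in females on the HFD and on average. Right, the interaction, the own-diet difference of the HFD line minus that of the chow line. Bars are 95% confidence intervals. In HFD-fed females 7 of 8 members lie below 0, and only the Dgat1 and Agpat2 intervals exclude 0. The Agpat3 interaction of -0.53 has the widest distance from 0.

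Where 1 reaction is shared by enzymes of different genes, the difference of their log2 signals within an array removes whatever scales the whole array. The size of such a difference has no meaning of its own, because the probes differ, but its change between groups shows unequal change of the paired genes. The pairs formed were Agpat2 with Agpat3, Lpin1 with Lpin2 and Dgat2 with Dgat1, chosen after the member values had been seen. They were tested with a two-sided exact permutation test and Benjamini-Hochberg adjustment over 15 tests (the 4 comparisons between groups and their interaction for each pair).

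The Dgat2 minus Dgat1 difference in GpatHF-HF was 3.02, 2.81, 2.97, 2.81 and 2.90. It was 2.36 to 2.78 in GpatHF-CD, 2.61 to 2.71 in GpatCD-HF and 2.26 to 2.75 in GpatCD-CD, so every GpatHF-HF rat lay above every other rat. In the HFD line it was 0.35 larger on the HFD than on chow (2.90 ± 0.09, SD, n = 5, against 2.55 ± 0.17, n = 6, exact permutation p = 0.0043, adjusted p = 0.0325). Among HFD-fed females it was 0.25 larger in the HFD line than in the chow line (2.65 ± 0.04, n = 6, in GpatCD-HF, exact permutation p = 0.0043, adjusted p = 0.0325). Both values share the 5 GpatHF-HF arrays, and 0.0043 is the smallest p that 5 against 6 animals can give. In the chow line the own-diet change was 0.13 (exact permutation p = 0.0513, adjusted p = 0.192), and the interaction was 0.22 (exact permutation p = 0.0778, adjusted p = 0.204), so the lines were not shown to differ in their own-diet change. Without the 4 arrays that stood apart the HFD line change was 0.32 and the line difference on the HFD 0.23, with adjusted p = 0.119 in the exact test for both, 0.0159 being the smallest unadjusted p of the second comparison with 4 animals against 5. After quantile normalization they were 0.28 and 0.22 (adjusted p = 0.0649 and 0.0974 in the exact test). With 1 array left out, each passed in 8 of 24 fits. The chow line change passed in 1 of 24 such fits, without array 30 (0.17, adjusted p = 0.0433 in the exact test). Over the alternatives that left out no single array, it ran from 0.05 to 0.14. Its adjusted p in the exact test ran there from 0.162 to 0.764.

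Agpat2 minus Agpat3 changed by -0.41 with the HFD in the chow line (exact permutation p = 0.0338, adjusted p = 0.169), with 4 of 6 HFD-fed rats below all 7 on chow, and by -0.02 in the HFD line (adjusted p = 0.935 in the same exact test). Lpin1 minus Lpin2 changed by -0.23 and -0.27 with the HFD in the chow and HFD lines, with adjusted p = 0.398 and 0.591 in the exact test. Neither pair passed in any of its 5 tests over 24 arrays, and the Agpat2 minus Agpat3 change in the chow line passed without array 22 (-0.53, adjusted p = 0.0397 in the exact test).

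**Figure D4:**
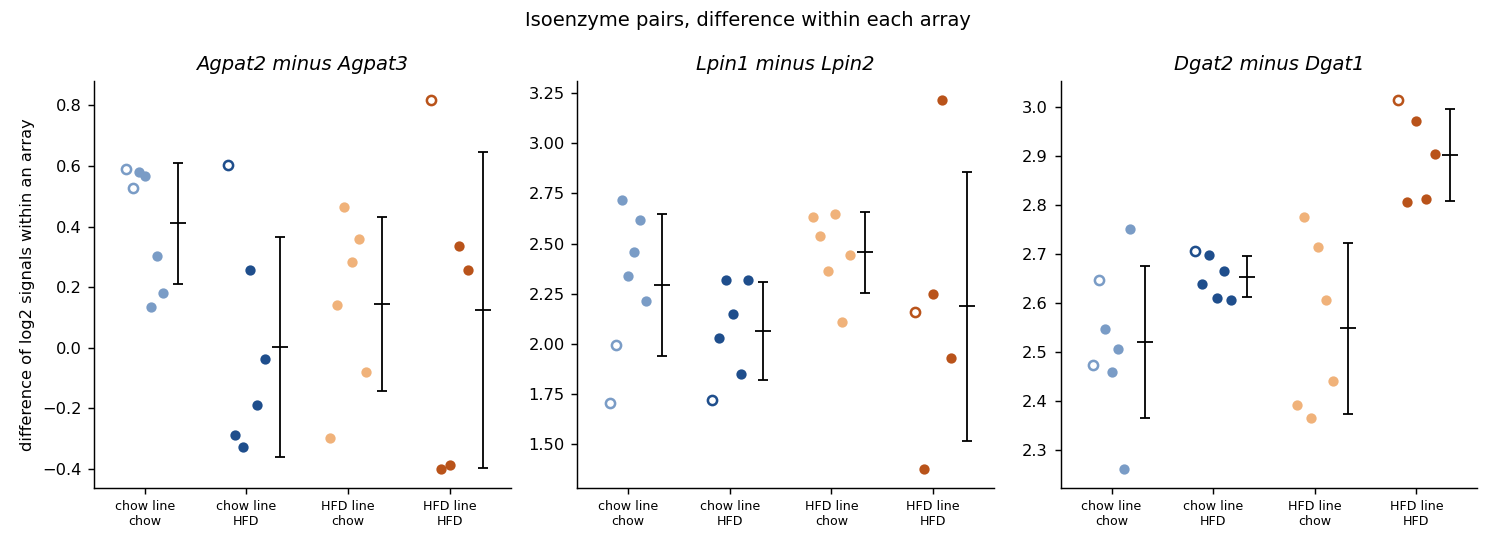
Difference of log2 signals within an array for the pairs Agpat2 minus Agpat3, Lpin1 minus Lpin2 and Dgat2 minus Dgat1, 1 point per rat, with open points for arrays 21, 22, 24 and 25 and bars for the mean ± SD. All 5 GpatHF-HF points of Dgat2 minus Dgat1 lie at 2.81 or above, higher than every other point.

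The members were also compared for how they varied together among animals of the same group, after array medians and group means had been removed. Of 28 pairs, 16 correlated positively over 24 arrays and 1 passed at an adjusted permutation p under 0.05. Agpat3 and Dgat1 varied together from rat to rat (Pearson r = 0.68, permutation p = 0.00065, adjusted p = 0.0182; Spearman rho = 0.67, permutation p = 0.00065, adjusted p = 0.0182), and r was 0.59 without the 2 arrays farthest from the Agpat3 median. Over the 20 arrays that did not stand apart this r was 0.55 (adjusted permutation p = 0.199). Both genes were below their group means on all 4 arrays that stood apart, and the part of those arrays in the correlation was not tested.

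Agpat2 and Lpin2 went opposite ways. Over 24 arrays r was -0.60 (permutation p = 0.00535, adjusted p = 0.0749) with rho -0.55 (permutation p = 0.0112, adjusted p = 0.0783). Without the 2 arrays farthest from the Agpat2 median this r was -0.46, and without the 2 farthest from the Lpin2 median -0.39. Over the 20 arrays r was -0.83 (permutation p = 0.00009, adjusted p = 0.00252) with rho -0.84 (permutation p = 0.00007, adjusted p = 0.00196). The same 2 omissions gave r of -0.80 and -0.72 there. Agpat2 with Lpin2 was the only 1 of 28 pairs to pass over those 20 arrays. Neither the isoenzymes of the second step (Agpat2 with Agpat3, r = 0.11) nor the lipins (r = 0.25) passed over 24 arrays, while Dgat1 and Dgat2 had r = 0.55 (adjusted permutation p = 0.0811).

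**Figure D5:**
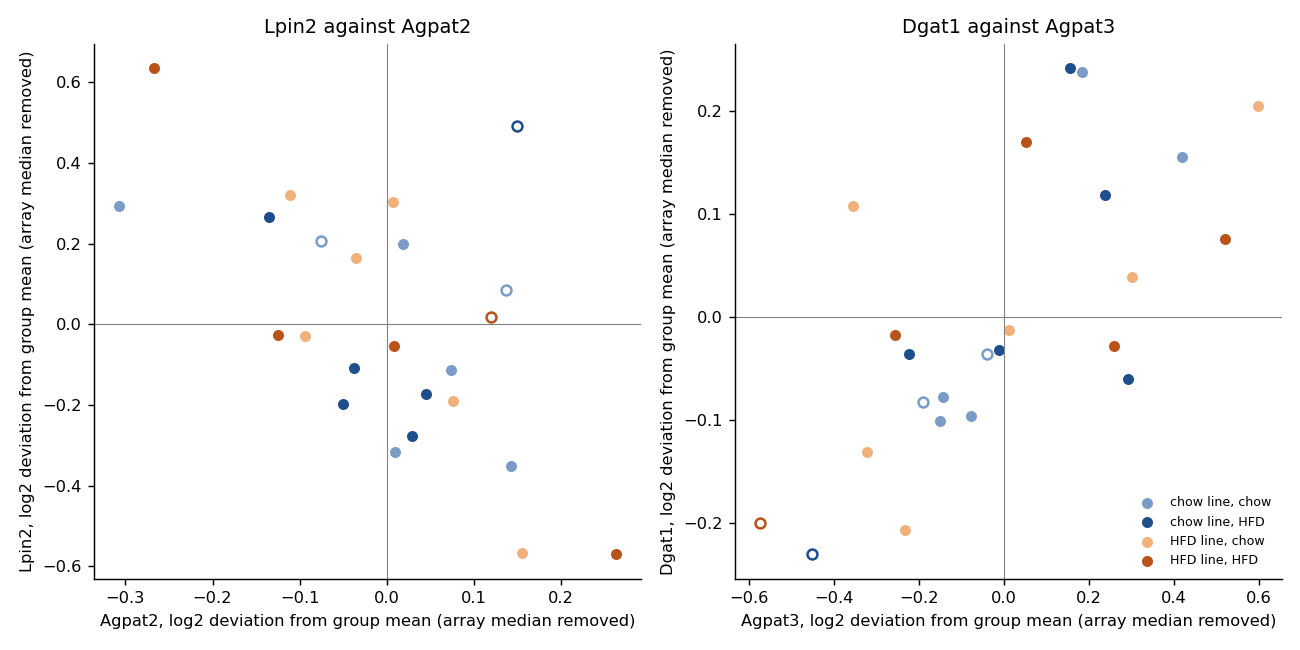
Deviation of each rat from its group mean after the array median was removed, for Lpin2 against Agpat2 and for Dgat1 against Agpat3, coloured by group, with open points for arrays 21, 22, 24 and 25. Lpin2 falls as Agpat2 rises (r = -0.83 over the 20 filled points, -0.60 over all 24). Dgat1 rises with Agpat3 (r = 0.68 over all 24 points, 0.55 over the 20 filled). Neither pair passed in both sets of arrays.

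For each member the 3 most similar of 13798 probe sets were found by Pearson correlation of the same deviations over 24 arrays, as a description. Nearest to Gpam were Mpc1, which encodes a mitochondrial pyruvate carrier subunit (r = 0.85), Dock6 (0.78) and Elovl6, a fatty acid elongase (0.75). Lpin1 had Zfp692 (0.82), Cimap1b (0.74) and Slc25a21 (0.73) as its nearest, and Lpin2 had Slc25a34 (0.81), Cbln3 (0.75) and Retn (0.75). Agpat2 was most like Clock, a core circadian regulator (0.78), Cldn2 (0.78) and Crls1, the cardiolipin synthase (0.75), and Agpat3 most like Lman2 (0.93), Dexi (0.90) and Pttg1ip (0.90). Dgat1 followed Eci2 (0.85), Cd82 (0.84) and Nubp2 (0.83), while Dgat2 followed the glycolytic gene Gapdh (0.79), Inhca (0.79) and the apolipoprotein gene Apoc1 (0.78). Gpd1 followed the peroxisome assembly gene Pex16 (0.88), the transcription factor gene Cebpb (0.88) and Kiaa0930 (0.87), and these 3 values were 0.81, 0.78 and 0.76 over the 20 arrays that did not stand apart.

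Genes around the 8 enzymes were read from lists of the same pathway. Among the 11 measured of 16 other acyltransferases, lipins and genes of glycerol 3-phosphate supply, 1 fell with the own HFD on average: Plpp2, a membrane lipid phosphatase (-0.46 ± 0.12, adjusted p = 0.0417 by limma), a call kept in 17 of 37 alternatives and in 7 of 24 fits with 1 array left out. Gpat4, the acyltransferase of the endoplasmic reticulum, differed by -0.19 ± 0.08 (adjusted p = 0.289), and Lclat1 by -0.28 ± 0.10 (adjusted p = 0.157). Gpat3, Mogat1 and Mogat2 were too dim to test and Gpd1l and Plpp1 were not analysed here. None of the 6 measured acyl-CoA synthetases, which activate fatty acids for every acylation, passed in any comparison, and the smallest adjusted p on average was that of Acsl3 (-0.46 ± 0.14, adjusted p = 0.0858).

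In the values as deposited, the branch that turns diacylglycerol or phosphatidic acid into phospholipids gave more calls than the enzymes themselves, although the difference in counts was not tested. Of its 12 measured genes, Cds1, which makes CDP-diacylglycerol (-0.34 ± 0.08, adjusted p = 0.0305), and Etnk1, an ethanolamine kinase (-0.27 ± 0.07, adjusted p = 0.0453 by limma), fell with the own HFD on average, calls kept in 24 of 36 and 16 of 37 alternatives, and in 14 and 6 of 24 fits with 1 array left out. In the HFD line alone, Selenoi, the ethanolaminephosphotransferase that uses diacylglycerol, fell (-0.45 ± 0.10, adjusted p = 0.0258), kept in 30 of 38 alternatives. Its adjusted p by limma was 0.0709, 0.0715, 0.0907 and 0.0607 without array 37, 42, 45 or 47. After quantile normalization it was 0.0505, whereas Dgat2 passed in the HFD line (adjusted p = 0.0137 by limma). Of all tested probe sets, 1.99% passed on average over lines and 0.752% in the HFD line. All 12 genes were lower on the HFD in that line (median -0.25, beside -0.09 for all probe sets), as they were with arrays centred, while 11 were lower after quantile normalization. In the chow line 3 of 12 were lower, and the Selenoi difference between lines was -0.46 ± 0.13 (adjusted p = 0.262). Of 8 measured regulators, Pparg, a nuclear receptor that drives lipid storage genes, fell on average (-0.63 ± 0.14, adjusted p = 0.0158 by limma), kept in 35 of 36 alternatives. Its mean signal was 6.66 in GpatCD-CD and 6.36 in GpatHF-CD. On the HFD it was 5.96 in GpatCD-HF and 5.79 in GpatHF-HF, near the level of 5.72 set as dim. Ppara (0.24 ± 0.11, adjusted p = 0.343 by limma) and Ppargc1a (-0.26 ± 0.15, adjusted p = 0.495), regulators of fatty acid oxidation, did not pass. Srebf1 and Mlxipl, also on the list of regulators, were not analysed here.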

How the data were processed

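Per the submitters' processing notes, the authors used Affymetrix Expression Console and PLIER; the deposited table holds 1 linear intensity per probe set and array, with further settings not given in the sources used here. Gene names came from the platform annotation: 18197 of 20917 probe sets have 1 symbol, 960 several and 1760 none here. Values were taken as log2(intensity + 16). Probe sets in the lowest 25% by mean were left out, and all 8 members stayed among the 15687 tested. limma 3.58.1 (R 4.3.3) fitted 4 group means over 24 arrays with an intensity trend, and p-values were Benjamini-Hochberg adjusted over all probe sets with a threshold of 0.05. The code was tested on simulated data. Permutation tests used Python 3.11.15 and numpy 2.4.6, with 100000 permutations within groups for correlations and the smaller tail doubled in exact tests. The members and lists were chosen with earlier results of these data known. All members were named, and from each list every gene past the threshold, otherwise up to 4 with the smallest p. Alternatives covered normalization, filter, offset, variance model, probe sets per gene, groups fitted, the 4 arrays that stood apart and each array in turn. The isoenzyme differences, their alternatives, and centring combined with the 4 arrays were added after the data had been seen.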

Additional observations from a re-analysis of the deposited data

Results flagged for a closer look

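In GpatCD-CD, array 30 had the lowest Agpat2 signal, 10.77 on the log2 scale, with the nearest of the other 6 rats at 11.22. The gap was 0.625 of the range of the group, above the 95% critical value of 0.568 for 7 samples. It was the 1 group flagged among 32 (8 members in 4 groups), and chance flags about 1 group in 20.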

How the results depend on the processing

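No paired analysis was possible because the groups share no replicate numbers. Over 38 alternatives, 2104 member values gave 13 that newly passed and 14 that reversed, meaning a sign change that moved the value by at least its standard error. A further 107 changed sign by less than the standard error, such as Dgat2 in HFD-fed females between lines with centring (0.05), and are not listed. The count of members called on own diet in the HFD line became 1 (Dgat2, 0.28, adjusted p = 0.0137) after quantile normalization, and on average over lines it became 1 after quantile normalization, centring, a 50% filter, the 4 arrays as a block, and centring with the 4 arrays as a block or left out. Single arrays left out gave 0 to 1 (1 without 21, 22, 25, 28, 30 or 38). All these calls were Dgat2 except Lpin1 without 21 and Agpat2 without 30. Reversed values, none passing, were, after quantile normalization, Gpd1 own diet in the HFD line 0.055, HFD-fed grandpaternal 0.11 and interaction 0.10, Dgat2 0.076 HFD-fed grandpaternal and 0.16 interaction, and Agpat2 interaction 0.048. With centring, Dgat2 grandpaternal average was 0.031. With centring and the block, Gpd1 in the HFD line was 0.066 and Dgat2 HFD-fed grandpaternal 0.054. With centring without the 4 arrays, Gpd1 was 0.079, 0.098 and 0.065 in its 3 comparisons, Dgat1 own diet average 0.042 and Lpin2 grandpaternal average 0.0095. The cause was not tested. Of 312 probe sets past the threshold on own diet average, 57 were higher, against 121 of 333 with centring and 167 of 427 after quantile normalization. For Dgat2 minus Dgat1, single arrays left out gave 0.32 to 0.40 (own diet, HFD line) and 0.22 to 0.27 (HFD-fed females), with adjusted exact p from 0.0325 to 0.0714. For each, 8 of 24 fits passed, those without a GpatCD-CD array or array 22, most of which left the compared animals unchanged. In the exact test 5 animals against 5 cannot go below an unadjusted 0.00794. Counting regroupings by absolute size in place of doubling the smaller tail gave adjusted exact p = 0.0487 and 0.0325.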
